A study of Mus musculus with 31 samples.

Results

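The masseter muscle (MM) was compared between a high and a low dose of collagenase type 2 (Col), a bacterial enzyme preparation that digests collagen. The 4 libraries of early 10U Col, which the labels place at day 2, were set directly against the 8 libraries of 0.2U Col. Together these were 12 of the 31 libraries of the series. The 0.2U libraries came as 2 groups of 4, named 1C and RPC, and the labels give no day for either. All mice were male C57BL/6J, per the study 2 to 4 months old, injected into the MM, and no genetic model was used. The 3 vehicle libraries and the later 10U libraries (3 at day 6, 4 labelled day 12) were used only to place the values. The study's text gives other days than the labels for the early and last 10U groups, and gives days for 0.2U that the labels do not tie to 1C or RPC. Days are printed here as labelled, and dose and day cannot be told apart.

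Skeletal muscle that is injured first raises stress genes and chemokines in its resident cells, and the chemokines draw neutrophils and then monocytes from the blood. Monocytes become macrophages that clear debris, while satellite cells, the muscle stem cells, divide and fuse through the regulators Myod1 and Myog. Fibers that lose their integrity or their nerve contact switch on embryonic acetylcholine receptor subunits and carry less mRNA of the contractile and energy-producing machinery.

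Reads on genes ranged from 15759560 to 27573542 among the 12 libraries. Levels are in CPM, read counts divided by a library total that TMM scaling aligns on the bulk of genes. Values with ± are log2 fold changes of early 10U over 0.2U with their standard errors. Reads that fell on more than 1 gene made up 0.675% to 0.875% in the 11 libraries of 10U and 0.147% to 0.317% in the 20 others, so the assignment of reads differed together with the dose. For this reason 149 genes that lay on one side of all 20 other libraries in all 11 libraries of 10U were removed first, 96 above and 53 below. Of the removed genes that could be tested, 61.6% overlapped an exon of a gene on the opposite strand, against 21.5% of the genes kept. No member of the gene lists below was among the removed genes.

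The labelled tissue was present throughout. The 27 sarcomere genes summed to 52329 to 97290 CPM in early 10U, 110781 to 154057 in 0.2U and 147308 to 226332 in the vehicle. Salivary gland genes varied widely at both doses, with sums of 54.4 to 125438 CPM in early 10U and 133 to 299157 in 0.2U, and none of the 12 tested was called. Genes of tooth enamel stood high in 4 of the 8 libraries of 0.2U (replicates 2, 3 and 4 of 1C and replicate 2 of RPC), where Amelx, which encodes amelogenin, was at 2727 to 6383 CPM. In bulk tissue, fewer cells of a type and less RNA per cell cannot be told apart.

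Replicate 4 of early 10U stood apart from the other 3. Its stress genes summed to 3476 CPM, against 11738 to 14726 in replicates 1 to 3 and 2946 to 4142 in 0.2U. Its sarcomere sum was the highest of the group. The label of this library gives no reason to leave it out, so it stayed in. Counts of a list are also given without it where they moved by over 1.5 times and by more than 1 gene. Lists added after values were seen are excepted.

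Among 14519 genes tested, 876 DEGs were up-regulated in early 10U and 626 were down-regulated (adjusted p under 0.05, fold change over 2, mean RPKM over 1 at either dose). These were 6.03% and 4.31% of the genes tested. The median log2 fold change over all genes was 0.02. When all 31 libraries were fitted together the split was 752 up and 806 down. In 814 of the up-regulated DEGs, replicates 1 to 3 lay above every 0.2U library, but all 4 replicates did so in only 166. Replicate 4 lay inside the range of 0.2U in 666 of the 876 up-regulated DEGs and in 341 of the 626 down-regulated ones. Among all genes tested, 4.35% lay above and 4.05% lay below 0.2U in every library, 8.40% in all. Replicates 1 to 3 taken alone lay above every 0.2U library in 21.9% of all genes tested and below every one in 16.9%.

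Against 1C alone 615 DEGs were up (4.24%) and 673 down (4.64%), and against RPC alone 913 were up (6.29%) and 460 down (3.17%). The counts rested on few libraries. Without replicate 4 of early 10U, 1330 DEGs were up and 1344 down. Without replicate 3, 431 were up and 338 down, and without replicates 1 and 2 in turn the down-regulated DEGs fell to 288 and 326. Leaving out the 4 libraries of 0.2U with enamel transcripts gave 519 up (3.67% of the genes tested) and 251 down (1.78%) when 0.2U was 1 level, and 27 up and 53 down when 1C, then 1 library, and RPC were kept as separate levels. Some named genes reached 10 counts at 1 dose in too few libraries to pass the filter without the other dose, where they were high. Of these, 13 passed through early 10U, and 9 passed through 0.2U and had no early 10U library at 10 counts. Krt79, Ucp1 and Nkg7, with 1 such early 10U library each, and Col9a3, with 3, also passed only through 0.2U. All of these had to differ, so their values are given with no p. The counts and medians of the lists below include them, and list members that are not named were not checked for this. Values given further on without the 4 libraries with enamel transcripts have 0.2U as 1 level. Leaving out the other 4 libraries of 0.2U instead gave 198 up and 337 down. The alternatives that leave out 4 libraries were chosen after seeing the data.

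**Figure D1:**
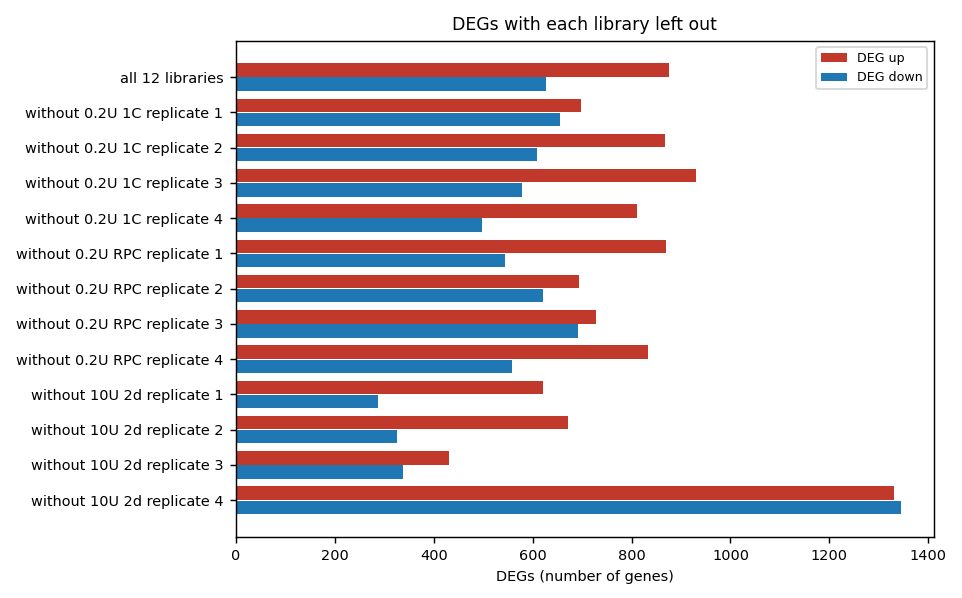
DEGs up (red) and down (blue) in early 10U Col against 0.2U Col with all 12 libraries and with each library left out in turn, in numbers of genes. The counts span 431 to 1330 up and 288 to 1344 down, and the largest shifts come from the 10U libraries.

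In 851 of the 876 up-regulated DEGs, the mean of early 10U was farther from the vehicle mean than the mean of 0.2U was. The down-regulated DEGs were mixed, with 437 of 626 farther from the vehicle in early 10U and 189 farther in 0.2U. DEGs are chosen by the distance between the doses. The share among all genes tested was not computed, so these counts do not tell DEGs from other genes. The vehicle is also among the libraries whose assignment of reads differed from that of 10U. By list medians, chemokine, macrophage, stress and sarcomere genes lay farther from the vehicle at 10U, and brown fat, keratin and cartilage genes farther at 0.2U, while fat synthesis genes lay apart from it at both doses and in opposite directions. The vehicle libraries took part in no test of this comparison.

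**Figure D2:**
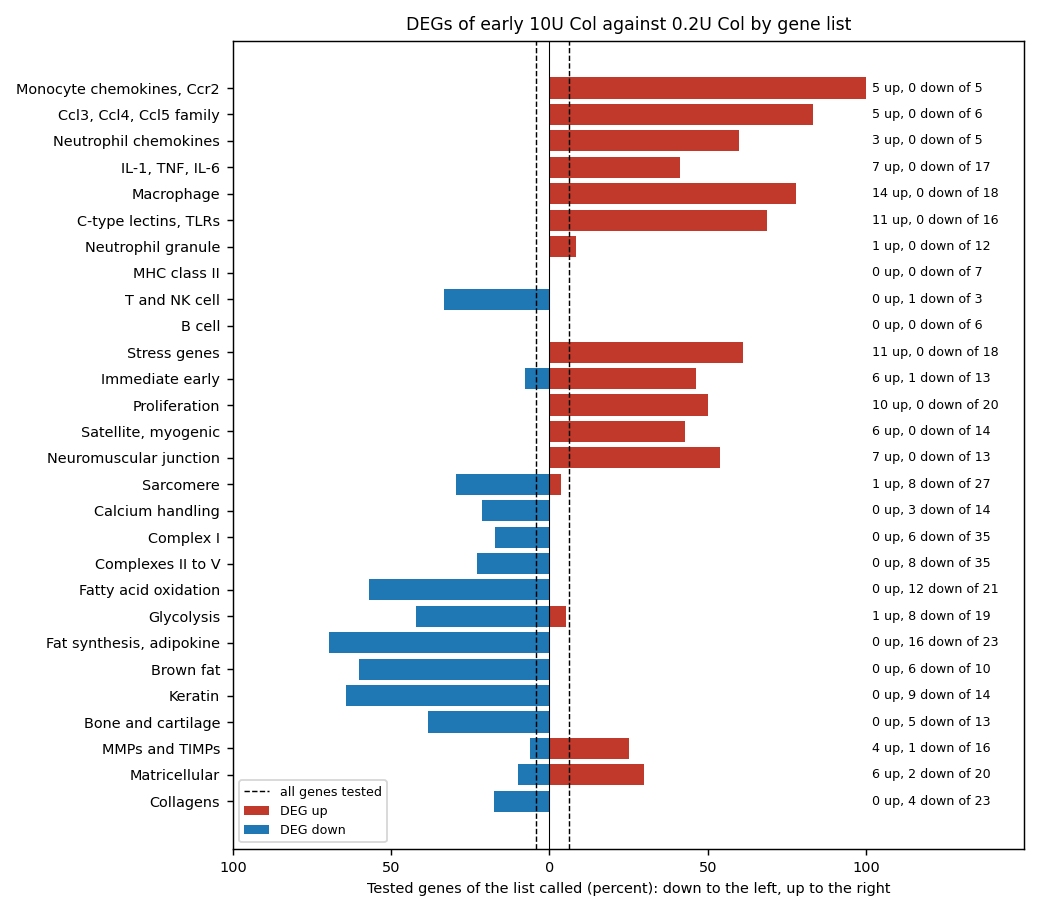
Share of the tested genes of each list called as DEGs of early 10U Col against 0.2U Col, in percent, with up-regulated genes to the right and down-regulated to the left. Dashed lines mark the share among all genes tested, 6.03% up and 4.31% down, and the counts stand at the right.

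Stress genes were among the most changed groups. Of 18 tested genes of metallothioneins, heme breakdown and chaperones, 11 rose and none fell, with a median log2 fold change of 1.35. Without replicate 4, 16 of 18 rose, where 9.23% of all genes tested did. Mt2, a metallothionein that binds zinc and copper (mm9, chr8:96696518-96697467), was at 403, 413, 469 and 22.4 CPM in early 10U replicates 1 to 4. In 0.2U it ranged from 11.3 to 86.1 with a median of 19.2, so 3 libraries lay far above every 0.2U library and replicate 4 lay among them. The log2 fold change was 3.63 ± 0.59 (SE, adjusted p = 0.0034), and 4.03 without replicate 4. Mt1, its neighbour with the same role, was at 433, 483, 540 and 24.8 CPM against 23.3 to 95.5 (log2 fold change 3.17 ± 0.55, adjusted p = 0.0037). Hmox1, the heme-degrading enzyme, was at 396, 372, 537 and 69.4 CPM against 13.2 to 93.2 in 0.2U (log2 fold change 3.40 ± 0.51, adjusted p = 0.0029). For these 3 genes replicates 1 to 3 did not overlap 0.2U, and the day 12 libraries of 10U lay within or below the range of 0.2U. Without the 4 libraries with enamel transcripts 6 of the 18 were called. Hspa1a, an inducible Hsp70 chaperone, rose by 2.98 ± 0.68 (adjusted p = 0.0096). It shares 66.8% of its windows of 50 bases with other transcripts, so its counts are uncertain.

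The stretches of 250 bases before the starts of the neighbours Mt1 and Mt2 are shown because the genes moved together. They are RefSeq sequences (GRCm38.p6, plus strand, chr8:94178839-94179088 and chr8:94172368-94172617). Capitals mark the letters TGCNCNC on either strand, a loose form of the core of the metal response element in which N is any base.
Mt1: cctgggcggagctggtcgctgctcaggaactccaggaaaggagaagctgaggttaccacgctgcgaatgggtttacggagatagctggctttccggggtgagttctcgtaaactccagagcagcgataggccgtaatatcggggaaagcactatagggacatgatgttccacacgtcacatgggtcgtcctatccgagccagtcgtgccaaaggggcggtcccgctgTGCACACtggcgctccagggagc
Mt2: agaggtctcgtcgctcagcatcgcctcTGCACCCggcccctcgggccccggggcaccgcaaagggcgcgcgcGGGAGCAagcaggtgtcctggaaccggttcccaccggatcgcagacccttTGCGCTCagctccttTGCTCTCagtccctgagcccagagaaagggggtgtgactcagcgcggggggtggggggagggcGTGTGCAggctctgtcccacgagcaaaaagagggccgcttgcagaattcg
The letters occurred 1 time before Mt1 and 5 times before Mt2 in these stretches. Bases after these RefSeq starts were not searched, so the counts do not rank the genes. The letters are short and occurred at least 1 time in 44.4% of 32851 RefSeq promoters of this length, and at least 4 times in 1.28%. Stricter letters were not counted, and a match does not show an element in use.

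Immediate early transcription factors, which respond within minutes to cell signals, rose in part. Of 13 tested, 6 rose and 1 fell, with a median log2 fold change of 1.90. Junb was at 277, 302, 312 and 28.4 CPM in early 10U against 9.51 to 38.6 in 0.2U (log2 fold change 3.71 ± 0.50, adjusted p = 0.0029). Myc, a driver of cell growth, was at 148, 121, 130 and 14.3 CPM against 9.52 to 27.4 (2.56 ± 0.45, adjusted p = 0.0041). Again replicate 4 alone lay within the range of 0.2U.

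**Figure D3:**
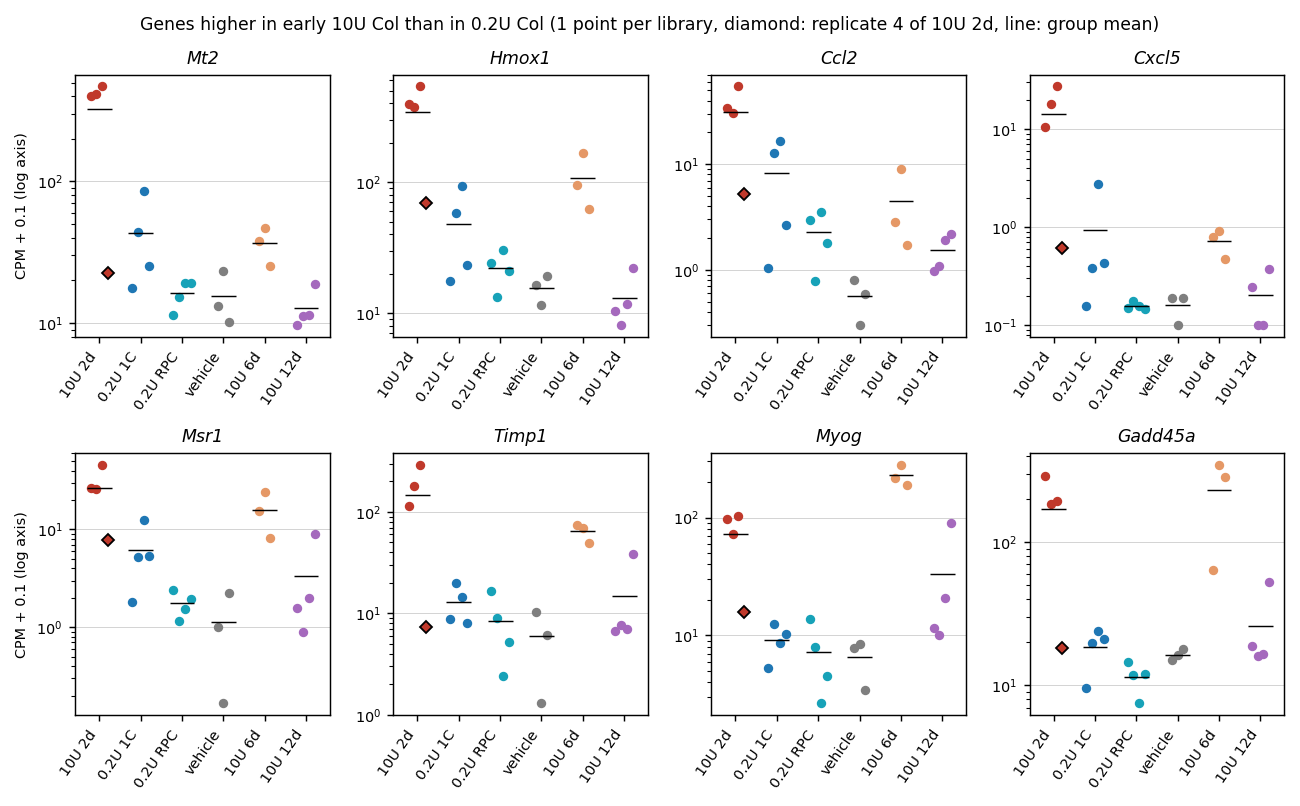
Level of 8 genes in each library (CPM + 0.1, log axis) in early 10U, both 0.2U groups, the vehicle and later 10U Col, with 1 point per library and a line at the group mean. Replicates 1 to 3 of early 10U lie above every 0.2U library for all 8 genes, and replicate 4 (diamond) lies within or close to their range.

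Chemokine genes rose as a group. All 5 of the monocyte-attracting CC chemokines with their receptor Ccr2 rose, as did 5 of 6 genes of the Ccl3 family and 3 of 5 neutrophil-attracting CXC chemokines. Their medians were 2.50, 2.24 and 2.63 on the log2 scale. These counts and medians include Ccl3, Cxcl3 and Cxcl5, which passed the filter only through early 10U and had to differ. Against 1C alone 3, 2 and 3 genes of these lists rose, and against RPC alone 5, 5 and 2. Ccl2, the main attractant of Ccr2-bearing monocytes (mm9, chr11:81849073-81850955), was at 33.9, 30.2, 54.4 and 5.18 CPM in early 10U. In 0.2U it ranged from 0.688 to 16.5 with a median of 2.72. The highest 0.2U values were in 1C, and the log2 fold change was 1.92 against 1C and 3.82 against RPC. Over both it was 2.87 ± 0.69 (adjusted p = 0.012). Ccl7, its neighbour on the chromosome, was at 29.7, 27.8, 50.6 and 2.16 CPM against 0.334 to 14.9 (3.48 ± 0.78, adjusted p = 0.0089). Ccr2 itself was at 45.3, 37.6, 60.0 and 34.4 CPM against 7.95 to 39.7 (1.66 ± 0.32, adjusted p = 0.0052), and here replicate 4 was near the others. Ccl3 was low in absolute level, at 0.392 to 4.54 CPM in early 10U and at most 0.69 in 0.2U (3.92 ± 0.75).

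Of the CXC chemokines that act on neutrophils, Cxcl3 and Cxcl5 were near 0 in most libraries of 0.2U. Cxcl5 was at 10.5, 17.9, 27.2 and 0.51 CPM in early 10U against a median of 0.066 and a highest value of 2.65 in 0.2U (5.96 ± 0.96). Cxcl3 was at 8.52, 10.4, 24.4 and 0.0392 CPM against at most 0.69, with most 0.2U libraries at 0 (7.97 ± 1.39). Cxcl1 was at 5.34, 6.73, 10.7 and 0.981 CPM against 0.286 to 3.44 (2.63 ± 0.54, adjusted p = 0.0066). In replicate 4 all 3 genes lay within the 0.2U range, and in the other 3 libraries they lay above it. Without the 4 libraries with enamel transcripts, only 1 of the 5 genes of this list was called (5 without replicate 4), and Cxcl1 gave 1.92 with an adjusted p of 0.115.

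Cxcl1 and Cxcl3 lie in one cluster on chromosome 5, and the 250 bases before each start are shown because the genes rose in the same libraries. They are RefSeq sequences (GRCm38.p6, plus strand, chr5:90890995-90891244 and chr5:90785851-90786100), with letters of the kappaB element, searched on both strands, in capitals.
Cxcl1: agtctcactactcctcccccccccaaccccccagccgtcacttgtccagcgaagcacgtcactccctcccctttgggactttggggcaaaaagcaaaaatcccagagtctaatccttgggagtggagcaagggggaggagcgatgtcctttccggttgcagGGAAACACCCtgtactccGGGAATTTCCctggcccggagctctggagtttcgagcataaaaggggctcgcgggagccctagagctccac
Cxcl3: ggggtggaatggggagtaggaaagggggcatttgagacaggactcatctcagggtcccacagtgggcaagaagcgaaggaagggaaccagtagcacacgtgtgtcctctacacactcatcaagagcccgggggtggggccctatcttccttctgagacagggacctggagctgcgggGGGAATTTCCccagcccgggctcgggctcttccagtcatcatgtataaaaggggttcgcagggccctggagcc
The letters occurred 2 times before Cxcl1 and 1 time before Cxcl3, and in 4.11% of all RefSeq promoters of this length. A match is a description of the letters and not of a binding site in use.

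Cytokines of the IL-1, TNF and IL-6 families rose in part, with 7 of 17 up-regulated and a median of 0.91, but 1 of 17 without the 4 libraries with enamel transcripts. Without replicate 4, 11 rose and 1 fell. Against 1C alone 4 rose, and against RPC alone 9 rose and 1 fell. Il1b, the fever cytokine made by activated myeloid cells, was at 7.49, 7.47, 13.1 and 0.863 CPM against 0.144 to 2.23 in 0.2U (3.55 ± 0.63, adjusted p = 0.0041). In the list of pain mediators 3 of 16 rose, namely Calca, described below, Ptgs2 and Gdnf. Ptgs2, which encodes the prostaglandin enzyme COX-2, was at 7.98, 12.7, 37.3 and 0.196 CPM against 0.229 to 1.30 (4.11 ± 0.78, adjusted p = 0.0049). Gdnf, a growth factor for motor and sensory neurons, was at 23.9, 12.4, 12.7 and 1.29 CPM against 0.501 to 3.82 (3.08 ± 0.62, adjusted p = 0.0061).

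Macrophage genes rose broadly. Of 18 tested identity, scavenger and Fc receptor genes, 14 rose and none fell, with a median of 1.72, and 14 also rose without replicate 4. By reference group, 8 rose against 1C alone and 14 against RPC alone. The summed level of the list was 699 to 2053 CPM in early 10U, 307 to 838 in 0.2U and 179 to 550 in the vehicle. Msr1, a scavenger receptor, was at 26.4, 25.9, 45.7 and 7.69 CPM in early 10U against 1.07 to 12.3 in 0.2U (3.05 ± 0.47, adjusted p = 0.0031). Fcgr2b, an Fc receptor, rose by 2.31 ± 0.38 (adjusted p = 0.0035), and Cd68, a lysosomal marker of macrophages, by 2.26 ± 0.46 (adjusted p = 0.0063). Ms4a7, a membrane protein of macrophages, was at 7.98, 9.58, 15.5 and 6.79 CPM against 1.07 to 3.61 (2.04 ± 0.29, adjusted p = 0.0029). Ms4a7 did not overlap between the doses, replicate 4 included, and it was higher still at day 6 of 10U, at 27.3 to 73.7 CPM.

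C-type lectins and Toll-like receptors, which sense microbes and dead cells, rose in 11 of 16 tested genes with a median of 1.33. The call depended on the reference group, with 3 up against 1C alone and 12 against RPC alone. Clec4n was at 13.3, 12.9, 25.2 and 3.61 CPM against 0.389 to 3.98 in 0.2U (3.54 ± 0.53, adjusted p = 0.0029). Clec4e, a receptor for damaged cells, was at 4.04, 7.64, 14.4 and 0.785 CPM against 0.166 to 2.34 (3.33 ± 0.64). Among 12 genes of alternatively activated and lipid-handling macrophages, 3 rose and 1 fell, and 4 rose and 3 fell without replicate 4. Arg1, arginase, was at 154, 203, 433 and 8.43 CPM against 2.49 to 37.8 (3.67 ± 0.83, adjusted p = 0.0094), and Trem2, a lipid receptor, rose by 2.22 ± 0.45 (adjusted p = 0.0062). Of 6 NADPH oxidase genes 2 rose, and of 9 cathepsin genes 3 rose, against 0 and 1 without the 4 libraries with enamel transcripts. With 1C alone as reference 0 and 1 of them rose, and with RPC alone 3 and 3. Complement genes were split, with 5 of 15 up and 3 down. C5ar1, the receptor for C5a, rose by 2.00 ± 0.41 (adjusted p = 0.0062). Cfd, made chiefly by fat cells, was at 31.6, 36.9, 20.4 and 62.8 CPM against 101 to 365 without overlap, and fell by 2.75 ± 0.41 on the log2 scale (adjusted p = 0.0029).

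Most genes of the other leukocyte lists were not called. Only 1 of 12 neutrophil granule genes was called, the receptor Csf3r (2.12 ± 0.51, adjusted p = 0.011), and the list median was -1.03. None of 7 MHC class II genes and none of 6 B cell genes was called. Cd74, the invariant chain, gave -0.40 ± 0.27 (adjusted p = 0.27), and Blnk, a B cell adaptor, gave -0.13 ± 0.22 (adjusted p = 0.67). Only 3 of 12 T and NK cell genes had enough counts to be tested. Nkg7, a gene of cytotoxic granules, was at 0.057 to 0.623 CPM in early 10U and 0.698 to 2.43 in 0.2U. It fell by 1.95 ± 0.56. Of 17 interferon-stimulated genes 1 rose and 1 fell, close to the share of all genes, and without the 4 libraries with enamel transcripts none was called. The one that rose was Cxcl10 (1.80 ± 0.52, adjusted p = 0.023), which overlaps the opposite-strand gene Art3 over 8.75% of its exons.

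Proliferation genes rose in 10 of 20 tested, with a median of 1.11, and in 16 of 20 without replicate 4. By reference group, 0 rose against 1C alone and 10 against RPC alone. Cdk1, the mitotic kinase, was at 19.8, 24.7, 32.2 and 4.39 CPM against 2.55 to 9.97 in 0.2U (1.76 ± 0.42, adjusted p = 0.012). Tpx2, a spindle protein, rose by 1.53 ± 0.35 (adjusted p = 0.0095). None of the 20 was called without the 4 libraries with enamel transcripts, although the median was then 1.24.

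Several genes that remodel the extracellular matrix rose, while most collagens were not called. Timp1, which inhibits matrix metalloproteinases, was at 113, 181, 292 and 7.26 CPM in early 10U against 2.33 to 19.9 in 0.2U (3.86 ± 0.68, adjusted p = 0.0041). Adamts4, an aggrecanase, was at 44.6, 48.6, 70.4 and 2.79 CPM against 0.501 to 6.90 (4.10 ± 0.71, adjusted p = 0.0039). In both genes replicates 1 to 3 were far above 0.2U, and replicate 4 lay among the 0.2U libraries. Lox, which cross-links collagen, rose by 2.20 ± 0.50 (adjusted p = 0.0092). Has1, a hyaluronan synthase, was among the 10 largest rises without overlap, at 1.08, 5.81, 16.8 and 0.588 CPM against at most 0.525 (4.68 ± 0.86). By list, 4 of 16 metalloproteinase and inhibitor genes rose and 1 fell, and 6 of 20 matricellular and cross-linking genes rose and 2 fell. Without the 4 libraries with enamel transcripts 2 rose in each list. Against 1C alone 2 of the matricellular and cross-linking genes rose, and against RPC alone 6 did.

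None of 23 collagen genes rose. The 4 that fell were Col2a1, Col9a2, Col9a3 and Col10a1, which are known from cartilage. All of them lost the call without the 4 libraries with enamel transcripts. By reference group, 4 collagen genes fell against 1C alone and 0 against RPC alone. Col2a1 was at 1.14 to 3.26 CPM in early 10U and 0.943 to 174 in 0.2U (-3.25 ± 0.83, adjusted p = 0.015). Col9a3 was at 0.108 to 0.706 CPM against 0.942 to 14.2 (-3.02 ± 0.61). Of 15 small leucine-rich proteoglycan and tendon genes 2 rose and 2 fell. The median of this list was -0.52, and 12 of the 15 log2 fold changes were negative. Without replicate 4, 6 were down, and without the 4 libraries with enamel transcripts none was. Against 1C alone 3 fell, and against RPC alone 0. Scx, the tendon transcription factor, was at 67.5, 45.2, 39.7 and 13.0 CPM against 3.72 to 7.25 (2.94 ± 0.33, adjusted p = 0.002). Scx had no overlap in any replicate, as had 166 of the 876 up-regulated DEGs. Prg4, the joint lubricant lubricin, was at 127, 294, 639 and 59.0 CPM against 10.4 to 71.5 (3.12 ± 0.54, adjusted p = 0.0039). None of 12 fibroblast genes was called, but without replicate 4 of early 10U 2 were called up and 3 down. The most abundant, Gsn, gave -1.56 ± 0.56 (adjusted p = 0.052), with replicates 1 to 3 at 172 to 425 CPM and replicate 4 at 1865 against 1355 to 3093 in 0.2U.

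In the muscle itself, regulators of regeneration rose in part and some genes of the contractile machinery fell. Of 14 satellite cell and myogenic genes 6 rose and none fell, and of 13 acetylcholine receptor and neuromuscular junction genes 7 rose and none fell, with medians of 0.69 and 1.48. Without replicate 4, 2 of the 13 fell. Myog, which drives differentiation of muscle precursors (mm9, chr1:136186581-136189124), was at 96.4, 72.4, 103 and 15.8 CPM in early 10U. In 0.2U it ranged from 2.55 to 13.7 with a median of 8.27, so all 4 early libraries lay above all 8 (3.16 ± 0.47, adjusted p = 0.0029). Myl4, the embryonic myosin light chain, was at 73.1, 74.7, 57.2 and 4.86 CPM against 2.67 to 20.5 (3.09 ± 0.63, adjusted p = 0.0062). Gadd45a, which rises in denervated muscle, was at 286, 183, 193 and 18.0 CPM against 7.38 to 23.8 (3.56 ± 0.49, adjusted p = 0.0029). A gene on the opposite strand overlaps 19.1% of Gadd45a exons, and the part of this overlap in the difference was not tested. The day 12 libraries of 10U were at 15.8 to 52.4 CPM.

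Receptor subunits followed. Chrna1, the adult and embryonic alpha subunit, was at 167, 99.6, 112 and 22.7 CPM against 14.2 to 32.5 (2.15 ± 0.40, adjusted p = 0.0046). Chrng, the embryonic gamma subunit, was at 2.86, 2.91, 2.67 and 0.824 CPM against 0.0555 to 1.07 (2.83 ± 0.61). At day 6 of 10U Chrng stood at 90.2 to 197 CPM. Runx1, a transcription factor of denervated fibers, rose by 2.83 ± 0.45 (adjusted p = 0.0033). Of 14 genes of muscle atrophy and growth, 2 rose and 1 fell, 4 rose and 3 fell without replicate 4, and none was called without the 4 libraries with enamel transcripts. Igfbp5, a binding protein of insulin-like growth factors, was at 1109 to 2372 CPM against 549 to 1040 without overlap (1.16 ± 0.24, adjusted p = 0.0066), and Igf2 was at 20.6 to 33.4 against 35.1 to 115 (-1.28 ± 0.29, adjusted p = 0.009).

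Of 27 sarcomere genes 8 were down-regulated and 1 up, with a median of -0.86 and 12 of 27 below every 0.2U library, where 4.05% of all genes tested were. Without replicate 4, 14 of 27 were down, and without the 4 libraries with enamel transcripts 4 were. Of 7 myosin heavy chain genes 1 fell, and 4 without replicate 4. Myl1, a fast myosin light chain, was at 539, 792, 980 and 1709 CPM in early 10U against 2181 to 4359 in 0.2U and fell by 1.63 ± 0.33 (adjusted p = 0.0063). Myh4, the fast type IIB myosin heavy chain, was at 2691, 4496, 4981 and 6250 CPM against 8871 to 18192 and fell by 1.38 ± 0.30 (adjusted p = 0.0083). The doses did not overlap in either gene, and replicate 4 was the nearest to 0.2U in both. Among 14 calcium handling genes 3 fell, 7 without replicate 4 and none without the 4 libraries with enamel transcripts. Casq1, calsequestrin of the sarcoplasmic reticulum, was at 528, 519, 642 and 1797 CPM against 1896 to 3849 (-1.63 ± 0.37, adjusted p = 0.0097). Atp2a1, the fast calcium pump, was at 3346, 5070, 4841 and 15414 CPM against 16662 to 24333 (-1.49 ± 0.42, adjusted p = 0.021), and an opposite-strand gene overlaps 21.9% of its exons.

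Some energy metabolism genes fell. Of 21 fatty acid oxidation genes 12 fell, of 19 glycolysis and glycogen breakdown genes 8 fell and 1 rose, and the medians were -1.06 and -0.87. Without the 4 libraries with enamel transcripts 5 and 3 of them fell. Eno3, the muscle enolase (mm9, chr11:70470704-70476015), was at 363, 548, 617 and 1890 CPM against 2543 to 4983 in 0.2U and fell by 1.90 ± 0.44 (adjusted p = 0.01). Pgam2, the muscle phosphoglycerate mutase, was at 283, 454, 453 and 753 CPM against 1020 to 2073 (-1.62 ± 0.31, adjusted p = 0.0048). Neither gene overlapped between the doses. Ppara, a transcription factor that drives fat burning, was at 7.17, 13.4, 7.25 and 31 CPM against 30.3 to 72.5 (-1.81 ± 0.41, adjusted p = 0.0094), so replicate 4 lay just above the lowest 0.2U library.

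Some respiratory chain genes fell. Complex I had 6 of 35 tested subunits down, complexes II to V had 8 of 35 down, and none rose in either. The medians were -0.78 and -0.76, and without replicate 4 the counts were 22 of 35 in both lists, where 9.32% of all genes were down. Without the 4 libraries with enamel transcripts none was called, with medians of -0.89 and -0.93. Ndufa9, a complex I subunit, was at 65.7, 84.5, 73.4 and 196 CPM against 179 to 347 (-1.26 ± 0.30, adjusted p = 0.011). Uqcrc1, a core protein of complex III, was at 204, 277, 215 and 596 CPM against 574 to 1034 (-1.21 ± 0.31, adjusted p = 0.015). In both genes replicates 1 to 3 lay below every 0.2U library and replicate 4 lay inside their range. The glucose transporters moved in opposite directions. Slc2a4, the insulin-responsive GLUT4, was at 120, 227, 175 and 633 CPM against 464 to 991 (-1.30 ± 0.41, adjusted p = 0.032), and Slc2a1, the ubiquitous GLUT1, was at 245, 153, 194 and 15.9 CPM against 16.4 to 42.4 (2.70 ± 0.47, adjusted p = 0.004).

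**Figure D4:**
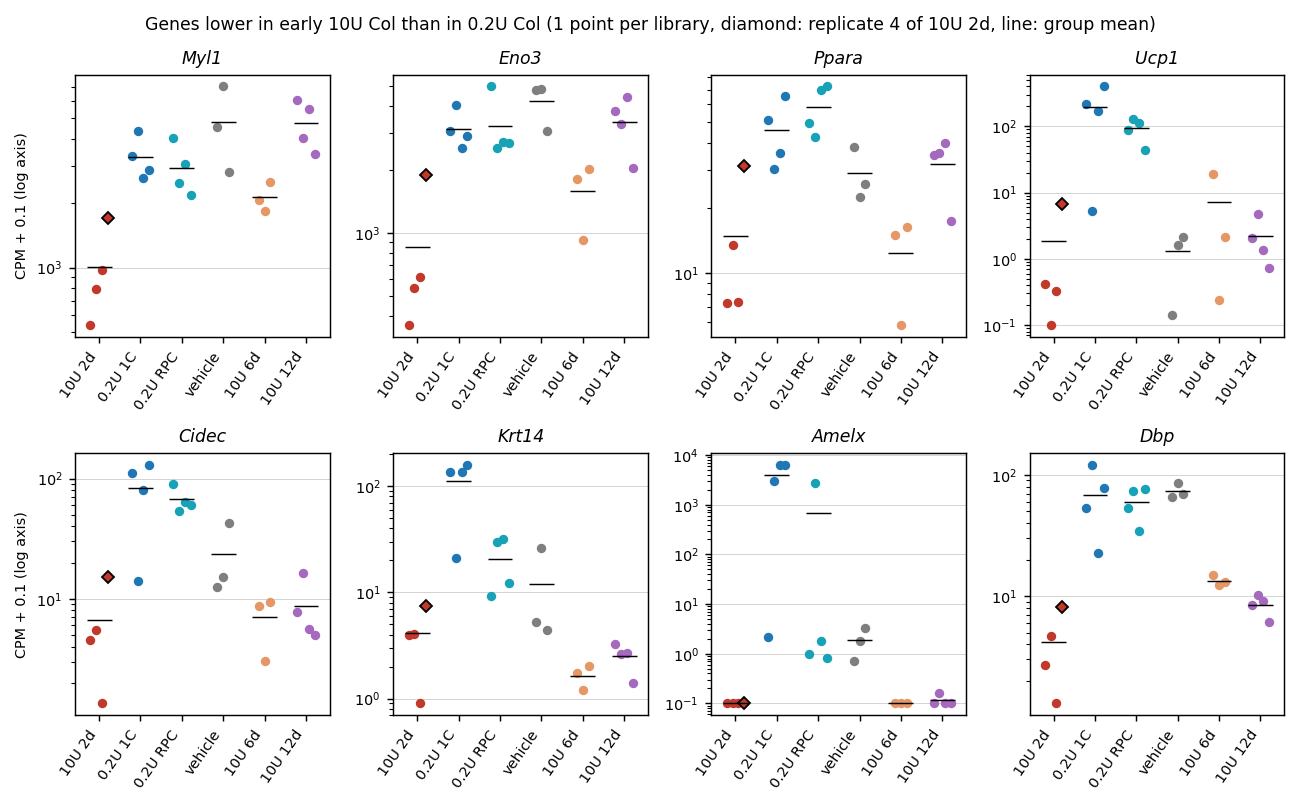
Level of 8 genes in each library (CPM + 0.1, log axis) in early 10U, both 0.2U groups, the vehicle and later 10U Col, with 1 point per library and a line at the group mean. The muscle genes Myl1 and Eno3 lie below the vehicle in early 10U, whereas Ucp1, Cidec and Krt14 are mostly raised above it in 0.2U, and Amelx is high in 4 libraries of 0.2U.

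Fat genes differed most by size among the metabolic lists. Of 23 fatty acid synthesis and adipokine genes 16 fell, with a median of -2.35, and of 10 brown fat genes 6 fell. Without the 4 libraries with enamel transcripts the counts were 13 and 3. Relative to the vehicle, the median of the first list was 1.08 higher in 0.2U and 0.85 lower in early 10U on the log2(CPM + 1) scale. Cidec, a lipid droplet protein of fat cells, was at 4.47, 5.41, 1.25 and 14.9 CPM in early 10U, 14 to 130 in 0.2U and 12.5 to 42.9 in the vehicle. It fell by 3.51 ± 0.69 on the log2 scale (adjusted p = 0.0056). Pck1, which supplies glycerol to fat cells, was at 0.979 to 40.1 CPM against 15.0 to 351 (-3.74 ± 0.98, adjusted p = 0.016), and Pparg, the master regulator of fat cells, was at 4.71 to 8.47 against 10.3 to 41.6 without overlap (-1.75 ± 0.32, adjusted p = 0.0046). Ucp1, the uncoupling protein of brown fat (mm9, chr8:85814247-85822355), was at 0.323, 0, 0.222 and 6.59 CPM in early 10U. It was at 5.15 to 399 CPM in 0.2U and at most 2.01 in the vehicle (-6.19 ± 1.40). Cidea, also of brown fat, was at 0.578 to 5.26 CPM against 5.72 to 313 (-5.01 ± 0.97, adjusted p = 0.0053). For Ucp1, replicates 1 to 3 lay below every 0.2U library and replicate 4 lay above the lowest of them and above the vehicle. For Cidea the doses did not overlap, and the vehicle was at 0.61 to 3.49 CPM. The part of fat tissue in the dissected samples was not tested.

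**Figure D5:**
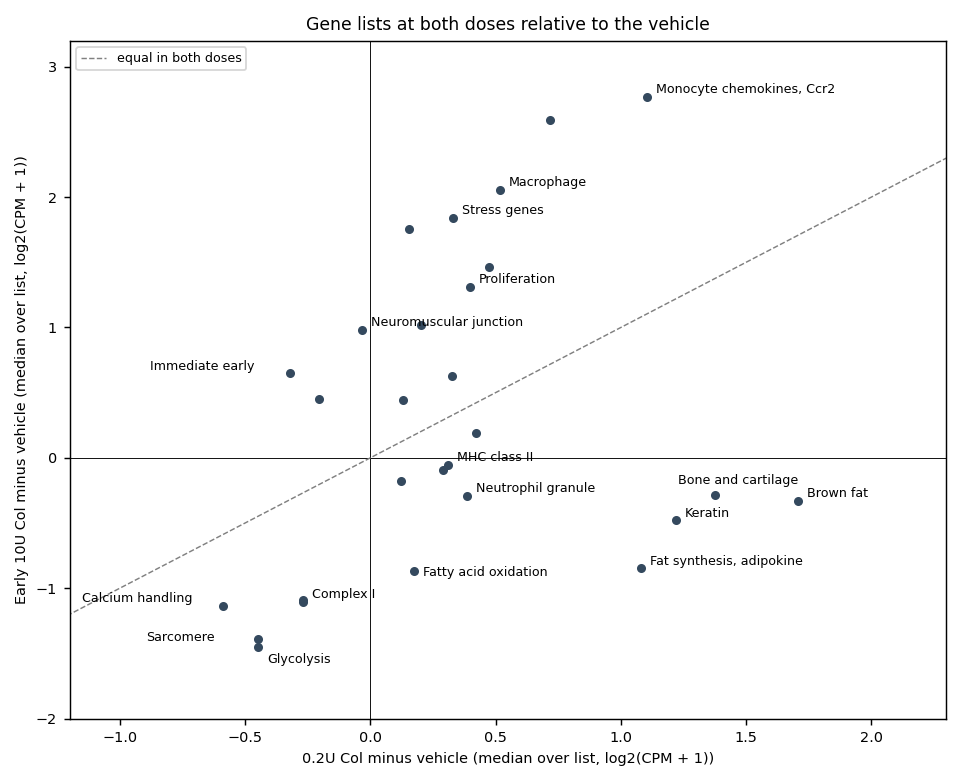
Median over each list of the difference from the vehicle on the log2(CPM + 1) scale, 0.2U Col on the x axis and early 10U Col on the y axis, with 1 point per list and a dashed line where both doses are equal. Fat synthesis genes lie at 1.08 for 0.2U and -0.85 for early 10U, keratin genes at 1.22 and -0.48, and sarcomere genes at -0.45 and -1.39.

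Many skin, cartilage and tooth genes were lower in early 10U. The list medians of 0.2U lay above the vehicle, although single libraries of 0.2U lay inside its range of summed levels. Keratin genes fell in 9 of 14 tested, with a median of -3.18, and their summed level was 24.1 to 105 CPM in early 10U, 154 to 989 in 0.2U and 69.2 to 245 in the vehicle. Against 1C alone 11 keratin genes fell, and against RPC alone 6. Krt14, of basal epidermis, was at 3.88, 3.99, 0.801 and 7.41 CPM against 9.14 to 159 (-3.57 ± 0.69, adjusted p = 0.0053). The log2 fold change was -4.80 against 1C and -2.34 against RPC. Krt79, of sebaceous ducts, was at 0.0445 to 0.701 CPM against 1.13 to 149 (-5.69 ± 1.14). Krt14 and Krt79 did not overlap between the doses, and with the enamel libraries left out 5 of 14 keratin genes were called, and Krt14 gave -3.61 with an adjusted p of 0.054. Acer1, a ceramidase of skin, was at 0 to 0.216 CPM against 0.377 to 29.6 (-5.56 ± 1.02).

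Several of the largest decreases were genes with at most 3 reads in each early 10U library. Amelx had 0 counts in all 4 early 10U libraries and 0.707 to 6383 CPM in 0.2U. Against the floor of 3 counts in each early library, its mean was at least 15877-fold lower, and the same bound was 2131-fold for the dentin gene Dspp and 1550.4-fold for the enamel gene Enam. The enamel gene Ambn was at 0 to 0.222 CPM against 0.283 to 2340. These 4 genes lay at or below 3.13 CPM in the vehicle. Dspp and Enam reached 10 counts only in the 4 libraries with enamel transcripts. Bounds for the other genes at this floor were 29.0-fold for Msx2, a transcription factor of tooth and skin, 62.3-fold for Sdr16c5, 16.3-fold for Krt6a, a keratin that shares 47.9% of its windows of 50 bases with other transcripts, and 25.3-fold for Chrnb4, a nicotinic receptor subunit of autonomic neurons. Dspp, Enam and Ambn had too few counts to be tested without the 4 libraries with enamel transcripts. Without replicate 3 of 1C the bound for Msx2 was 15.1-fold, and without replicate 1 of RPC that for Chrnb4 was 13.2-fold. Chrnb4 differed from the tooth genes in being present in the vehicle, at 1.87 to 7.39 CPM. In the later 10U libraries Chrnb4 was at most 0.0685 CPM at day 6 and 0.0612 at the label of day 12. Its near absence was thus not particular to early 10U, and the part of read assignment in it was not tested. Bone and cartilage genes fell in 5 of 13, and in none without the 4 libraries with enamel transcripts. They fell in 9 against 1C alone and in 2 against RPC alone.

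Genes of nerve fibers gave the largest rises with no overlap. Nefl, the light neurofilament chain of axons (mm9, chr14:68701920-68707152), was at 6.36, 26.6, 4.63 and 10.3 CPM in early 10U, and no 0.2U library had more than 2 reads. Its mean was at least 74.3-fold higher than the floor of 3 counts in each 0.2U library, and at least 44.1-fold without replicate 2 of early 10U. Nefm, the medium chain, was at 6.74, 25.1, 4.94 and 9.45 CPM against at most 0.191, and Nefh, the heavy chain, was at 4.10, 16.0, 3.16 and 7.02 against 0.0471 to 0.535 (4.59 ± 0.53). Replicate 4 lay within the range of the other 3 here, and replicate 2 was the highest in each. Calca, which encodes the sensory neuropeptide CGRP, was at 0.809, 6.10, 0.756 and 1.92 CPM against at most 0.186 (5.08 ± 0.76), and Cplx1, a synaptic protein, gave 3.46 ± 0.47.

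The level of Nefl differed between the days of 10U. Nefl was at 1.29 to 1.59 CPM at day 6, at 3.89 to 21.8 at the label of day 12, and at 0 to 1.06 in the vehicle. Exons of Nefl and Nefm overlap on opposite strands over 32.8% and 19.2% of their length, so their reads may be shared. Nefh and Calca have no such overlap. In lists added after values were seen, 5 of 10 axon genes, 5 of 7 tooth genes and 2 of 4 ganglion genes were called, counts that support nothing, since the filter kept several through the dose where they were high. Without replicate 4 of early 10U, Nefl, Nefm and Calca did not pass the filter on counts, which needs 4 libraries. The remaining largest rises were Gm13889 (4.38 ± 0.57), Mir5109 (4.03 ± 0.75), C2cd4b (3.81 ± 0.56) and Prrt3 (3.67 ± 0.39), with adjusted p values of 0.0027 for Gm13889 and 0.0014 for Prrt3. For Gm13889, Mir5109 and Prrt3 every 10U library, days 6 and 12 included, lay above every 0.2U and vehicle library. The lowest 10U values were 9.77, 0.863 and 1.56 CPM, and the highest of 0.2U and vehicle were 9.50, 0.732 and 1.35. These rises were thus not particular to early 10U, and the part of read assignment in them was not tested. C2cd4b shares 45.6% of its exons with an opposite-strand gene, and Mir5109 is counted here by its symbol in mRNA libraries and not as a mature miRNA.

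Few genes of other cells of the nerve and vessels were called. Schwann cell genes fell in 2 of 10, Prx and Mag, both of peripheral myelin, and in 5 without replicate 4. By reference group, 5 fell against 1C alone and 1 against RPC alone. Prx was at 23.0 to 46.4 CPM against 59.2 to 129 (-1.26 ± 0.24, adjusted p = 0.005), and Mag was at 1.87 to 2.86 against 3.61 to 6.48 (-1.01 ± 0.19, adjusted p = 0.0047), both without overlap. Among 14 endothelial genes 1 fell and 1 rose. Vwf, the carrier of clotting factor stored in vessel walls, was at 21.0, 32.5, 27.8 and 50.1 CPM against 66.7 to 106 (-1.34 ± 0.21, adjusted p = 0.0032), and Selp, P-selectin, rose by 1.20 ± 0.34 (adjusted p = 0.022). Of 6 tested red cell and mast cell genes none was called, but 1 rose and 2 fell without replicate 4. The most abundant, Alas2, gave -1.06 ± 0.65 (adjusted p = 0.22). The most abundant salivary gene, Smr3a, gave 0.77 ± 1.58 (adjusted p = 0.73), with 8.14 to 59267 CPM in early 10U and 39.4 to 151253 in 0.2U.

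Among genes chosen after their values were seen, the circadian output gene Dbp, a transcription factor, was at 2.59, 4.56, 1.20 and 8 CPM in early 10U. In 0.2U Dbp ranged from 22.6 to 121 and in the vehicle from 66.1 to 85.7, so the doses did not overlap. Dbp fell by 3.95 ± 0.59 on the log2 scale (adjusted p = 0.0029), and an opposite-strand gene, Sphk2, overlaps 16.7% of its exons. It was also low at day 6 of 10U, at 12.3 to 14.7 CPM, and at the label of day 12, at 6.06 to 10.2 CPM. Of 13 clock genes 6 fell and 2 rose. The hour of dissection was not known from the labels.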

How the data were processed

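Poly(A) RNA of dissected MM, tendons excluded as far as possible, was sequenced as stranded libraries of single 50-base reads. The authors deposited 1 table of raw counts per gene and library; the submitters' processing notes name bcl2fastq, TopHat2, HTSeq and the mm9 genome, and versions are not given in the sources used here. The 5 closing summary lines were left out of library sizes. Genes needed 10 counts in at least 4 of the 12 libraries. Early 10U was contrasted with the mean of 1C and RPC by the quasi-likelihood test of edgeR 4.0.16 (R 4.3.3, limma 3.58.1), with TMM scaling and Benjamini-Hochberg adjustment; the ± values are standard errors, computed as the log2 fold change over the root of F. The study itself used DESeq2, here (1.42.0) an alternative. No 2 libraries held identical counts. Replicate numbers did not pair libraries. The labels do not say that libraries came from separate animals, so p-values measure the spread between libraries. Named genes were the 10 largest changes each way without overlap, up to 4 DEGs in each of 43 lists, and the most abundant member of a list with no DEG; another 4 lists and Dbp were added after values were seen. 1 gene that this rule selects is not reported here. Members and lists were chosen with earlier results of these data known. Alternatives covered scaling, filters, the removal of genes, the reference group, the replicate block and each library left out.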

Additional observations from a re-analysis of the deposited data

Results flagged for a closer look

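In each group of 4 libraries the gap of the highest or lowest library to its nearest neighbour was set against the whole range on the log2(CPM + 1) scale, for 94 genes, and values beyond the critical value of Dixon's test are given. Chance passes this limit in about 1 in 20 groups.

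Replicate 4 of early 10U was the lowest of its group for Gm13889 (9.77 CPM), Adamts4 (2.79), Myl4 (4.86), Gadd45a (18.0), Chrng (0.824), Runx1 (14), Mt2 (22.4), Mt1 (24.8), Junb (28.4) and Myc (14.3). It was the highest for Casq1 (1797 CPM) and Ucp1 (6.59). Replicate 3 of early 10U was the lowest for the salivary gene Smr3a (8.14 CPM).

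In 1C of 0.2U, replicate 1 was the lowest for the enamel genes Amelx (2.06 CPM), Enam (0.111) and Ambn (1). Replicate 2 was the lowest for Krt79 (1.29 CPM), Acer1 (1.29), Cfd (101) and Krt14 (21.0). Replicate 3 was the highest for Slc2a1 (42.4 CPM).

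In RPC of 0.2U, replicate 2 was the highest for Amelx (2727 CPM), Dspp (301), Enam (339), Ambn (1678), Msx2 (4.97), Col9a3 (3.67) and Gdnf (1.91). Replicate 1 was the highest for Chrnb4 (16.0 CPM), Ndufa9 (347), Uqcrc1 (1034) and Eno3 (4983). Replicate 3 was the lowest for Csf3r (2.00 CPM) and Alas2 (1.78) and the highest for Hspa1a (34.6).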

How the results depend on the processing

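The 876 up-regulated and 626 down-regulated DEGs stayed within 1.5 times of these counts under other scaling, filters, removal of genes, designs and reference groups, among them DESeq2 (828 and 819), 1C alone (615 and 673) and RPC alone (913 and 460). Leaving out 1 library at a time gave 431 to 1330 up and 288 to 1344 down. The replicate block gave 747 and 672. Same-numbered libraries correlated at -0.14 on average over 12 pairs (-0.44 to 0.33), and 2 of 12 libraries correlated best with their own number. Of the alternatives chosen after seeing the data, leaving out the 4 libraries with enamel transcripts gave 27 and 53, or 519 and 251 with 0.2U as 1 level. Leaving out the other 4 gave 198 and 337. Leaving out the 4 with enamel transcripts and replicate 4 of early 10U gave 1283 and 1536. Each of these fits had fewer libraries than the main one, yet the counts fell in some and rose in another. The cause was not tested. No called gene among the 94 examined changed direction. Their values lost the call 36 times under these settings, 56 times with 1 library left out and 148 times under the settings added after seeing the data. They stayed the same 1087, 1038 and 285 times. Genes that were not tested under a setting are not counted there.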
